A study of Mus musculus with 4 samples.

Results

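Polycomb repressive complex 2 (PRC2) was followed at the RNA level through 10 genes in mouse embryonic stem cells (ESCs) labelled Naa10 knockout and in ESCs labelled wild type (WT). The genes were the catalytic subunits Ezh2 and Ezh1, the scaffold subunits Eed and Suz12, the histone chaperones Rbbp4 and Rbbp7, and the partners Mtf2, Phf19, Jarid2 and Aebp2. They were found by gene symbol, with symbols of joined rows split at commas, and all 10 had a row of their own among the 14099 named rows of the tables. All 10 rows passed the filter on low values, and none was listed at 0.

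The tables held poly-dT selected RNA of 4 libraries, 2 labelled Naa10-KO and 2 labelled WT, called biological replicates with no word on separate lines or separate cultures. All cells were F1 hybrids from the inner cell mass of blastocysts, out of C57BL/6 mothers heterozygous for the Naa10 mutation by WT fathers of JF1, a distant mouse strain. The WT cells came from littermates of the Naa10-KO cells, and which part of Naa10 is lost is not given in the labels. Both groups grew in N2B27 medium with LIF, the Mek inhibitor PD325901 and the Gsk3 inhibitor Chir99021, with irradiated fibroblast feeders for 5 passages and then with no feeder for another 5. Naa10 is the catalytic subunit of NatA, which acetylates protein N-termini during translation, and the series title asks about its role in DNA methylation and imprinting. Levels are RPKM, which divide the reads of a row by its length and by the library's total. As separate cultures are not stated, each p-value covers the spread among these 4 libraries, and that may be technical.

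PRC2 places methyl groups on lysine 27 of histone H3, and the trimethylated form (H3K27me3) marks repressed developmental genes. In ESCs it lies on many promoters that also carry H3K4 methylation, and ESCs that lack Eed or Suz12 lose H3K27me3 and differentiate poorly. The complex exists in alternative forms: a Polycomb-like protein such as Mtf2 or Phf19 defines PRC2.1, and Jarid2 with Aebp2 defines PRC2.2. H3K27me3 and DNA methylation largely exclude each other at CpG-rich sequence, and H3K27me3 inherited from the oocyte carries a form of imprinting of its own.

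Naa10 shared a row with its neighbour Renbp, at 28.9 and 34.4 RPKM in Naa10-KO and 105 and 106 RPKM in WT (limma adjusted p = 0.0342), so both libraries labelled Naa10-KO lay below both labelled WT. The adjusted p of this row was 0.0801 with rows at 0 and small RNA rows left out, and 0.366 and 0.355 (limma) without WT replicate 1 and without WT replicate 2. Relative to WT replicate 1, the depth read from steps in the values of short rows was 1.46 and 1.68 in Naa10-KO and 1.02 in WT replicate 2; the total depth was not settled. The median row differed by 0.25 on the log2(RPKM + 1) scale between the Naa10-KO libraries and by 0.05 between the WT libraries. All 10 ESC markers were detected in every library, with sums of 3466 and 4435 RPKM in Naa10-KO and 4427 and 4525 RPKM in WT. The summed level of 16 fibroblast markers was 931 RPKM in Naa10-KO replicate 1 and 246 RPKM in Naa10-KO replicate 2, against 268 and 283 RPKM in WT, with none of the 16 at 0. Such sums are weighted to abundant rows. By row, the median difference from the WT mean over the fibroblast markers was 0.76 in Naa10-KO replicate 1 and -0.38 in Naa10-KO replicate 2. Over the ESC markers it was -0.40 in Naa10-KO replicate 1 and 0.25 in Naa10-KO replicate 2. Both Naa10-KO libraries thus departed from WT in these markers, in opposite directions, and members are given for each library.

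The 3 core subunits that build the methyltransferase were lower in both Naa10-KO libraries, at 73.2% to 79.4% of the WT mean, and so was Mtf2, at 72.2%. Phf19 was 1.84-fold higher. Jarid2 was higher and Aebp2 lower with a smaller margin, Rbbp4 and Rbbp7 lay within or close to the WT range, and Ezh1 was below WT in one Naa10-KO library and above it in the other. No member passed the threshold of an adjusted p under 0.05 (limma, Benjamini-Hochberg over 11912 tested rows), where 0.764% of all tested rows did. At an unadjusted limma p under 0.05 there were 5 members, 4 lower and 1 higher, against 22.1% of all tested rows (13.2% lower, 8.9% higher). Fitted differences were below 0 for 8 members, as for 57.3% of all tested rows, and their median was -0.24 (-0.15, with 6 below 0, without Naa10-KO replicate 1), against -0.06 over all tested rows. In bulk RNA, fewer cells with a transcript and less of it per cell cannot be told apart.

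**Figure D1:**
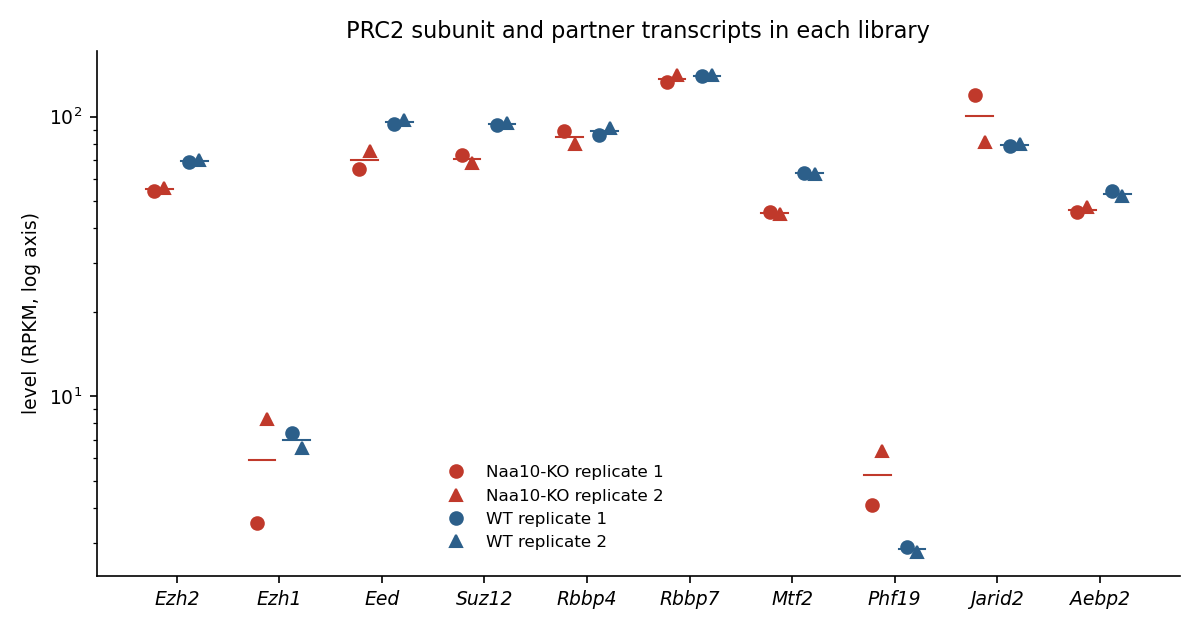
Level of each gene in RPKM on a log axis, with 1 point per library (circles, replicate 1; triangles, replicate 2) and a line at each group mean. Ezh2, Eed, Suz12, Mtf2 and Aebp2 have both Naa10-KO points below both WT points, and Phf19 and Jarid2 have both above.

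Ezh2, the main catalytic subunit of proliferating cells, had 54.3 and 55.8 RPKM in Naa10-KO and 68.6 and 69.9 RPKM in WT. The groups did not overlap, and the replicates of each lay close together. The log2 difference was -0.33 (SE 0.07, 95% interval -0.52 to -0.14, limma adjusted p = 0.134). Of the tested rows, 19.4% had a lower fitted difference than Ezh2.

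Ezh1 encodes the paralog that prevails in many non-dividing tissues and has weaker methyltransferase activity. Its level was 3.54 and 8.28 RPKM in Naa10-KO and 7.39 and 6.56 RPKM in WT. Naa10-KO replicate 1 was the lowest of the 4 libraries and Naa10-KO replicate 2 the highest. The fitted difference of -0.29 had a 95% interval from -1.37 to 0.78 (limma adjusted p = 0.668), and its sign followed the library kept: it was -0.81 without Naa10-KO replicate 2 and 0.22 without Naa10-KO replicate 1. Ezh1 made up 6.12% and 12.9% of the summed Ezh1 and Ezh2 RPKM in Naa10-KO, against 9.72% and 8.57% in WT. In all 4 libraries Ezh2 was the main transcript of the pair. The sum of the pair was 57.8 and 64.1 RPKM in Naa10-KO and 76.0 and 76.5 RPKM in WT, so it was lower in both Naa10-KO libraries although Ezh1 was split.

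Eed, the subunit that reads H3K27me3 and stimulates the enzyme, had 64.9 and 75.5 RPKM in Naa10-KO and 94.2 and 97.6 RPKM in WT. Both Naa10-KO libraries lay below WT, and the lower of them was replicate 1. The log2 difference was -0.45 (SE 0.10, 95% interval -0.73 to -0.17, limma adjusted p = 0.141).

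Suz12, the scaffold that holds the core together and binds the accessory proteins, had 72.7 and 68.0 RPKM in Naa10-KO and 93.0 and 94.8 RPKM in WT. Here replicate 2 was the lower of the Naa10-KO libraries. The log2 difference was -0.41 (SE 0.07, 95% interval -0.61 to -0.21, limma adjusted p = 0.116). Summed over Ezh2, Eed and Suz12, the level was 196 ± 5.26 RPKM in Naa10-KO and 259 ± 4.60 RPKM in WT (SD, n = 2 each).

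Rbbp4 and Rbbp7 encode close WD-repeat paralogs that bind histones in PRC2 and also serve NuRD, Sin3 and chromatin assembly complexes. Rbbp7, from the X chromosome, was the most abundant member in every library, at 133 and 141 RPKM in Naa10-KO and 139 and 141 RPKM in WT. Naa10-KO replicate 2 lay between the WT values, and replicate 1 lay just under them. Its log2 difference was -0.04 (95% interval -0.23 to 0.15, limma adjusted p = 0.766), with the sign turned to 0.03 when libraries were rescaled to the median ratio. Rbbp4 had 88.9 and 79.8 RPKM in Naa10-KO and 86.4 and 91.2 RPKM in WT, so the groups overlapped. Its log2 difference was -0.07 (95% interval -0.32 to 0.17, limma adjusted p = 0.640). How the authors' counting split reads shared by these paralogs is not stated, so their sum is also given, and it was 221 ± 0.683 RPKM in Naa10-KO and 229 ± 4.86 RPKM in WT (SD, n = 2 each).

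Mtf2, the Polycomb-like protein that guides PRC2.1 to unmethylated CpG islands, had the smallest p of the members. It had 45.7 and 44.9 RPKM in Naa10-KO and 63.0 and 62.5 RPKM in WT. The replicates of each group were nearly level and the groups far apart by comparison. The log2 difference was -0.46 (SE 0.07, 95% interval -0.65 to -0.27, limma adjusted p = 0.0987), lower than that of all but 10.6% of tested rows. Among the 2206 tested rows with a WT mean of 40 RPKM or more, 8.02% lay lower still.

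Phf19, another Polycomb-like protein, which binds methylated lysine 36 of histone H3, was the least abundant member in WT. It had 4.09 and 6.36 RPKM in Naa10-KO and 2.90 and 2.78 RPKM in WT. Both Naa10-KO libraries lay above WT, by 1.44-fold in replicate 1 and 2.24-fold in replicate 2. The log2 difference was 0.67 (SE 0.22, 95% interval 0.06 to 1.28, limma adjusted p = 0.201), higher than that of 96.3% of tested rows. Mtf2 remained the main transcript of the pair: Phf19 made up 8.23% and 12.4% of their sum in Naa10-KO, against 4.40% and 4.26% in WT. The sum was 49.7 and 51.2 RPKM in Naa10-KO and 65.9 and 65.3 RPKM in WT.

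The start regions of all 10 members were read for short factor motifs, from RefSeq windows of 250 bases before to 50 after each start (GRCm38.p6, not the mm9 of the deposited values). E2F factors, which drive genes of the cell division cycle, bind TTTCCCGC, TTTGCCGC, TTTCGCGC or TTTGGCGC. On either strand, these letters stood in 3 of the 14 windows of the members, and in 2.26% of all 32851 windows. Each string holds a CG, and the windows were not matched for CG content or expression, so these shares do not test enrichment. The 3 windows belonged to Ezh2, Suz12 and Phf19, of which Ezh2 and Suz12 were lower and Phf19 higher in Naa10-KO, and their stretches are shown with the matched letters in capitals.
Ezh2, chr6:47595006-47595067, minus strand: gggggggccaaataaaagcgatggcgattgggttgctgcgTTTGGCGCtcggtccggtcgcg
Suz12, chr11:79992856-79992934, plus strand: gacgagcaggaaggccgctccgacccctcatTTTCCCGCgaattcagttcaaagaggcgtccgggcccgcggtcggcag
Phf19, chr2:34914137-34914224, minus strand: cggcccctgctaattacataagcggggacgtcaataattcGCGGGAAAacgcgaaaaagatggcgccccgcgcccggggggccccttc
The match begins at base 4 after the start in Ezh2, 219 bases before the start in Suz12 and 208 bases before it in Phf19, where it reads on the other strand as the reverse complement of TTTCCCGC. The letters CCAAT, bound by NF-Y, stood in 9 of the 14 windows, which belonged to 8 members, and in 37.4% of all windows, and a palindrome bound by NRF1 in 0 of the 14 and in 0.971% of all windows. A match is a string of letters, not a binding site, and the members without one are not thereby free of the factor.

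Jarid2, a protein of the Jumonji family that recruits and stimulates PRC2.2, had 120 and 81.0 RPKM in Naa10-KO and 78.6 and 79.8 RPKM in WT. Both Naa10-KO libraries lay above WT, but replicate 2 by only 1.02-fold and replicate 1 by 1.51-fold. The log2 difference was 0.31 (95% interval -0.27 to 0.89, limma adjusted p = 0.432), and 0.03 without Naa10-KO replicate 1. That library had the high fibroblast markers, among them Vim at 386 RPKM against 137 RPKM in Naa10-KO replicate 2 and 118 and 128 RPKM in WT, and their part in the levels of Jarid2 and Ezh1 was not tested. Aebp2, the zinc finger protein of PRC2.2, had 45.7 and 47.5 RPKM in Naa10-KO and 54.1 and 52.0 RPKM in WT. Its groups did not overlap, with a log2 difference of -0.18 (95% interval -0.39 to 0.02, limma adjusted p = 0.254).

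Counted over all 10 members, both Naa10-KO libraries lay below both WT libraries in 5 (Ezh2, Eed, Suz12, Mtf2 and Aebp2), where 34.9% of all tested rows did so, and above both in 2 (Phf19 and Jarid2), where 24.4% did so. Taken singly, Naa10-KO replicate 1 was below both WT libraries in 7 members (54.6% of all tested rows) and above both in 2 (38.3%), and replicate 2 was below in 6 (48.3%) and above in 3 (41.8%). The median gap between the Naa10-KO libraries was 0.12 over the members, against 0.04 between the WT libraries. Ezh1, Jarid2 and Phf19 had the widest gaps in Naa10-KO, at 1.03, 0.56 and 0.53, while Mtf2 and Ezh2 had the narrowest, at 0.02 and 0.04.

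**Figure D2:**
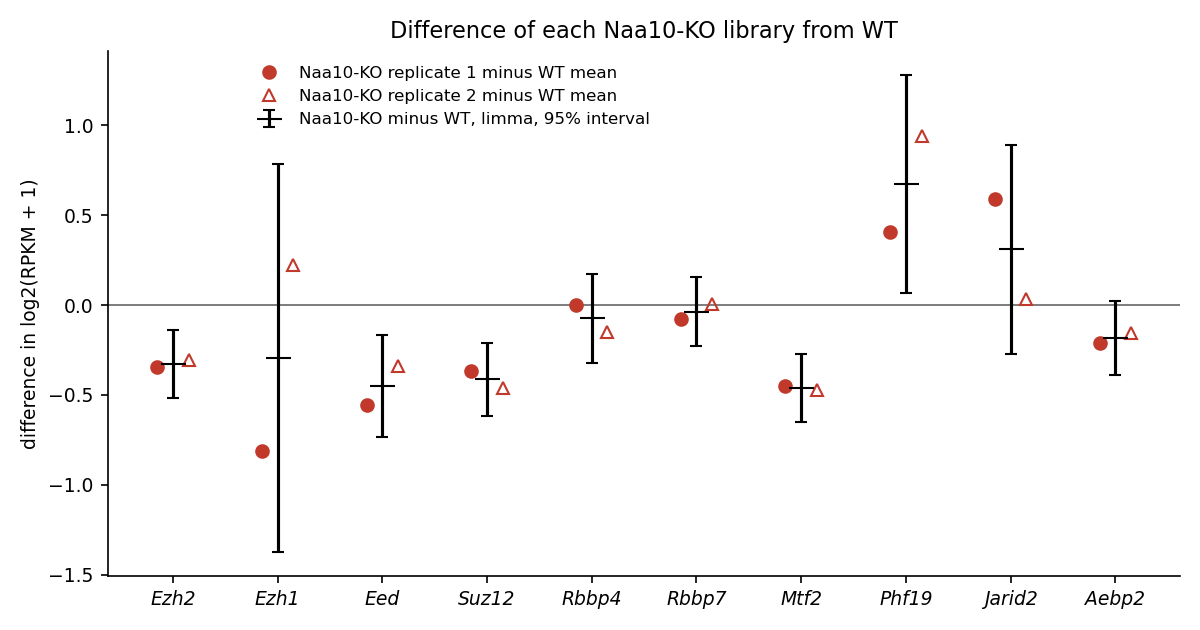
Difference from the WT mean in log2(RPKM + 1) for each Naa10-KO library (circle, replicate 1; triangle, replicate 2) and the limma estimate with its 95% interval (black). The intervals of Ezh2, Eed, Suz12 and Mtf2 lie below 0 and that of Phf19 above it before adjustment over all rows, and the points of Ezh1 lie on opposite sides of 0.

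The order of the levels, which RPKM allow to be compared per length, was the same in both WT libraries: Rbbp7, Eed, Suz12, Rbbp4, Jarid2, Ezh2, Mtf2, Aebp2, Ezh1 and Phf19. In WT, Eed and Suz12 did not differ beyond their spread, at 95.9 ± 2.44 and 93.9 ± 1.25 RPKM (SD, n = 2 each), while Rbbp4, at 88.8 ± 3.39 RPKM (SD, n = 2), lay below Suz12 in both libraries. Jarid2 ranked 5 in both WT libraries and 2 in both Naa10-KO libraries, after Rbbp7. Eed, which ranked 2 in WT, ranked 5 in Naa10-KO replicate 1 and 4 in replicate 2. In Naa10-KO, Jarid2 averaged 100 ± 27.2 RPKM and Rbbp4 84.3 ± 6.46 RPKM (SD, n = 2 each), so these neighbours were not separated beyond their spread. Aebp2 stood below Mtf2 in both WT libraries; in Naa10-KO the pair was level in replicate 1 (ratio 1.00) and Aebp2 was slightly above in replicate 2 (ratio 1.06). Ezh2 kept rank 6 in all 4.

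Ratios within a library show the balance of partners without the scaling between libraries. Of the 5 ratios compared, Mtf2 over Phf19 differed most, at 11.2 and 7.06 in Naa10-KO and 21.7 and 22.5 in WT (log2 difference -1.32). Jarid2 over Mtf2, which sets a single gene of PRC2.2 against a single gene of PRC2.1, was 2.62 and 1.81 in Naa10-KO and 1.25 and 1.28 in WT. Its log2 difference was 0.78, with 0.52 without Naa10-KO replicate 1 and 1.05 without Naa10-KO replicate 2. It does not stand for the 2 forms as a whole, as Phf19 of PRC2.1 was higher and Aebp2 of PRC2.2 lower in Naa10-KO. Aebp2 over Mtf2 was 1.00 and 1.06 in Naa10-KO and 0.859 and 0.831 in WT (log2 difference 0.28). For these 3 ratios the groups did not overlap, and the exact two-sided permutation test gave p = 0.333, the smallest that 2 libraries against 2 allow. All 3 contain Mtf2, so they are not separate observations. Ezh2 over Ezh1 was 15.3 and 6.73 in Naa10-KO and 9.29 and 10.7 in WT, with the Naa10-KO libraries on both sides of WT. Rbbp4 over Rbbp7 was 0.669 and 0.566 in Naa10-KO and 0.620 and 0.645 in WT, again on both sides. The exact p was 1 for the pairs Ezh2 over Ezh1 and Rbbp4 over Rbbp7.

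**Figure D3:**
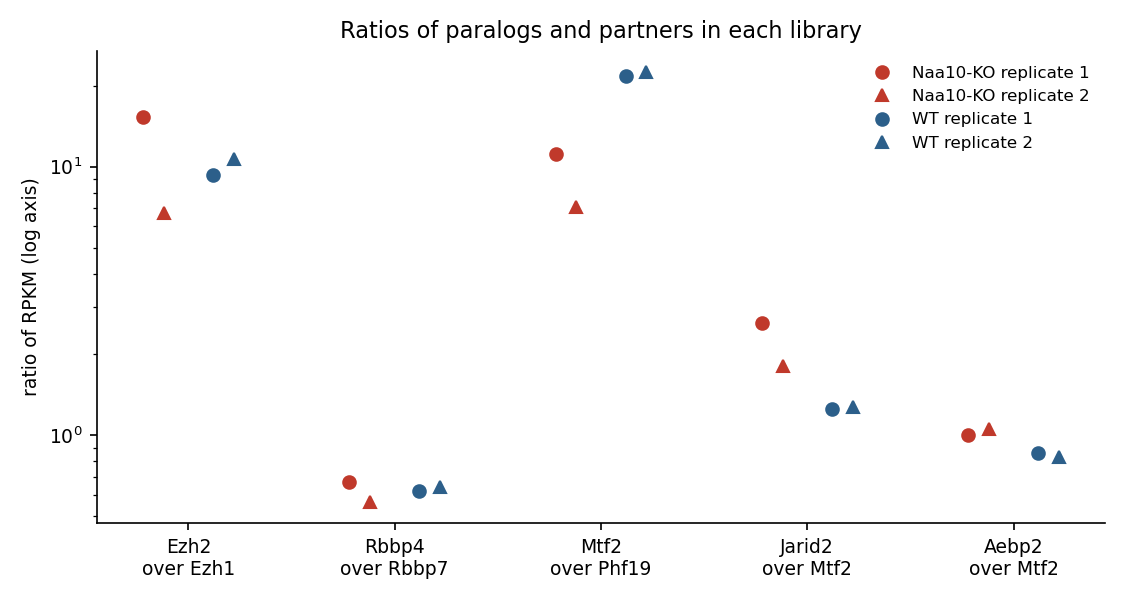
Ratio of the RPKM of 2 members in each library, on a log axis, with Naa10-KO left of WT and 1 point per library. Mtf2 over Phf19 lies lower and Jarid2 over Mtf2 and Aebp2 over Mtf2 lie higher in both Naa10-KO libraries than in both WT libraries.

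Other accessory genes of PRC2 were on a list of 7 symbols with 5 rows, of which 4, Lcorl among them, had a fitted difference above 0 (42.7% of all tested rows) and 0 passed (limma; 3 at an unadjusted p under 0.05, against 22.1% of all tested rows). Their median of 0.43 was 0.15 without WT replicate 1, where Lcorl is listed at 0, and 0.08 over the 2 rows that averaged at least 5 RPKM. Epop, which joins PRC2.1 with Elongin BC and was listed under its older symbol E130012A19Rik, stood at 559 and 492 RPKM in Naa10-KO and 341 and 339 RPKM in WT. Both Naa10-KO libraries lay above WT, and the level exceeded that of every member. Its log2 difference was 0.62 (SE 0.09, limma adjusted p = 0.0964). Ezhip, an inhibitor of PRC2 listed as AU022751, had 3.74 and 3.13 RPKM in Naa10-KO and 2.44 and 2.12 RPKM in WT (log2 difference 0.43, limma adjusted p = 0.199). Phf1, a further Polycomb-like gene, shared a row with Kifc5b, which had 17.8 and 15.3 RPKM in Naa10-KO and 22.7 and 23.5 RPKM in WT (log2 difference -0.46, limma adjusted p = 0.147), and the part of each gene in it cannot be separated. Lcor, whose locus also encodes a PRC2.1 subunit and whose row was joined with Mir8091, had 3.43 and 3.08 RPKM in Naa10-KO and 2.82 and 2.84 RPKM in WT. Its paralog Lcorl had 1.85 and 2.10 RPKM in Naa10-KO and was listed at 0 in WT replicate 1 and at 2.74 RPKM in WT replicate 2.

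PRC1 binds H3K27me3 through its Cbx subunits and ubiquitinates histone H2A. Of 25 tested PRC1 rows, 16 had a difference above 0 (42.7% of all tested rows) and 0 passed (limma; 10 at an unadjusted p under 0.05, 7 of them higher, against 22.1% and 8.9% of all tested rows). The median was 0.11, with 0.03 without Naa10-KO replicate 1 and 0.20 without Naa10-KO replicate 2. Scmh1, a PRC1-associated protein, had 18.4 and 18.6 RPKM in Naa10-KO and 10.1 and 10.5 RPKM in WT (log2 difference 0.79, limma adjusted p = 0.0803). Pcgf2, which partners the RING subunit, had 73.0 and 75.7 RPKM in Naa10-KO and 54.9 and 54.1 RPKM in WT (log2 difference 0.44, limma adjusted p = 0.103). Auts2, a partner of variant PRC1, had 5.36 and 6.05 RPKM in Naa10-KO and 3.71 and 3.64 RPKM in WT (log2 difference 0.52, limma adjusted p = 0.142). These 3 rows were named for the smallest p of the 25, a choice that favours close replicates and separate groups. Among the 25, the groups had no overlap with Naa10-KO higher in 10 (24.4% of all tested rows) and with Naa10-KO lower in 6 (34.9%).

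Enzymes that remove H3K27 methylation or acetylate the same lysine had 4 tested rows, all with a difference above 0 (42.7% of all tested rows), and 0 passed (limma; 1 at an unadjusted p under 0.05, a share near the 22.1% of all tested rows). Without WT replicate 1 or without Naa10-KO replicate 1, 3 of the 4 were above 0. The acetyltransferase gene Crebbp had 15.7 and 13.6 RPKM in Naa10-KO and 11.02 and 10.4 RPKM in WT (log2 difference 0.41, limma adjusted p = 0.169), and its paralog Ep300 had 35.9 and 32.7 RPKM in Naa10-KO and 30.8 and 29.8 RPKM in WT. The X-linked demethylase gene Kdm6a had 18.4 and 21.3 RPKM in Naa10-KO and 16.0 and 16.1 RPKM in WT (log2 difference 0.29, limma adjusted p = 0.236). The row of the demethylase gene Kdm6b was joined with Tmem88 and varied within each group, at 34.0 and 25.8 RPKM in Naa10-KO and 21.5 and 36.8 RPKM in WT.

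Of 17 tested rows for H3K4 and H3K36 methylation, which oppose PRC2 on nucleosomes, 7 had a difference above 0 (42.7% of all tested rows) and 0 passed (limma; 4 at an unadjusted p under 0.05, a share near the 22.1% of all tested rows). The median of -0.03 turned to 0.03, with 10 above 0, under rescaling to the median ratio; it was 0.05 without Naa10-KO replicate 2, -0.05 without Naa10-KO replicate 1, -0.01 without WT replicate 1 and -0.07 without WT replicate 2. Setd1b, an H3K4 methyltransferase gene, lay farthest, at 20.4 and 17.3 RPKM in Naa10-KO and 8.56 and 8.73 RPKM in WT (log2 difference 1.04, SE 0.12, limma adjusted p = 0.0807). Men1, a subunit of an H3K4 methyltransferase complex, had 22.4 and 23.7 RPKM in Naa10-KO and 18.2 and 17.9 RPKM in WT (limma adjusted p = 0.153). Whsc1, an H3K36 methyltransferase gene also called Nsd2, had 6.31 and 6.93 RPKM in Naa10-KO and 9.02 and 8.84 RPKM in WT (limma adjusted p = 0.168).

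The other complexes that hold Rbbp4 or Rbbp7 gave 27 tested rows, 14 above 0 (42.7% of all tested rows) and 13 below, and 0 past the threshold (limma; 8 at an unadjusted p under 0.05, against 22.1% of all tested rows). The median was 0.06, with 0.10 without Naa10-KO replicate 2, 0.12 under rescaling to the median ratio and 0.03 over rows that averaged at least 5 RPKM. Brms1, of the Sin3 complex, had 23.2 and 21.8 RPKM in Naa10-KO and 15.9 and 15.6 RPKM in WT (log2 difference 0.49, limma adjusted p = 0.117). Mbd3, of NuRD, had 73.6 and 60.4 RPKM in Naa10-KO and 44.5 and 45.9 RPKM in WT (log2 difference 0.55, limma adjusted p = 0.139), and Mta1, of the same complex, 47.8 and 54.5 RPKM in Naa10-KO and 38.0 and 38.6 RPKM in WT. The deubiquitinase complex that removes the PRC1 mark had 8 tested rows, 6 above 0 (42.7% of all tested rows) and 0 past the threshold (limma; 2 at an unadjusted p under 0.05, a share near the 22.1% of all tested rows). The median was 0.10, with 0.15 without Naa10-KO replicate 1, 0.03 with no filter, 0.16 under rescaling to the median ratio and 0.17 over rows that averaged at least 5 RPKM. Its cofactor Hcfc1 had 88.3 and 81.9 RPKM in Naa10-KO and 66.8 and 66.4 RPKM in WT (limma adjusted p = 0.136). The forkhead gene Foxk1 had 6.88 and 6.31 RPKM in Naa10-KO and 4.93 and 4.41 RPKM in WT, and the subunit gene Asxl1 48.5 and 52.6 RPKM in Naa10-KO and 44.4 and 45.3 RPKM in WT.

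Developmental regulators of the kind that PRC2 binds in ESCs were on a list of 130 symbols, of which 90 had a row and 37 reached the level for testing. Of the 37, 29 had a difference above 0, where 42.7% of all tested rows did, and the median was 0.44. That count was 22 without Naa10-KO replicate 1 and 27 without Naa10-KO replicate 2. It was 29 without WT replicate 1 and 26 without WT replicate 2. None passed (limma). At an unadjusted limma p under 0.05 there were 6, all higher. That share was below the 22.1% of all tested rows in either direction. It was above the 8.9% of all tested rows that were higher at that p. Of the 37, 4 were below 1 RPKM in both WT libraries and so passed the filter only through Naa10-KO. These 4 could only come out higher. They are counted in the 29 and in the median of 0.44, and Foxd1, one of them, is among the 6. Counts with only these 4 left out were not made. With no filter, 75 of the 90 rows had a difference above 0, against 43.8% of all 14099 rows, with a median of 0.29. Taken by library, the median of the 37 stood at 0.59 for Naa10-KO replicate 1 and at 0.18 for Naa10-KO replicate 2, and over the 5 rows that averaged at least 5 RPKM it was -0.03, with 2 of them above 0. The larger median belonged to the library with the high fibroblast markers, whose part in it was not tested.

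Gata2, a zinc finger regulator of blood and trophoblast, had 3.84 and 4.37 RPKM in Naa10-KO and 1.60 and 1.55 RPKM in WT (log2 difference 0.99, limma adjusted p = 0.0863). T, the mesoderm factor Brachyury, had 9.19 and 4.53 RPKM in Naa10-KO and 1.18 and 1.04 RPKM in WT (log2 difference 1.83, limma adjusted p = 0.118). Foxd1, a forkhead gene, had 1.92 and 1.81 RPKM in Naa10-KO and 0.904 and 0.974 RPKM in WT. It is among the 4 rows that passed the filter only through Naa10-KO, so its own test result is not given. For Gata2 and T, the lower Naa10-KO value exceeded the higher WT value, which their choice by smallest p favours. Summed markers of other lineages were 260 and 223 RPKM in Naa10-KO and 225 and 210 RPKM in WT for primitive endoderm, and 103 and 84.6 RPKM in Naa10-KO and 49.1 and 45.3 RPKM in WT for trophoblast. Such sums are weighted to the abundant rows, and 3 of the 7 tested trophoblast rows averaged at least 5 RPKM. Neuroectoderm markers had 3 rows, of which 1 averaged at least 5 RPKM. They summed to 18.3 and 6.03 RPKM in Naa10-KO and 6.90 and 7.70 RPKM in WT. Their median difference from the WT mean was 0.94 in Naa10-KO replicate 1 and -0.33 in Naa10-KO replicate 2.

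**Figure D4:**
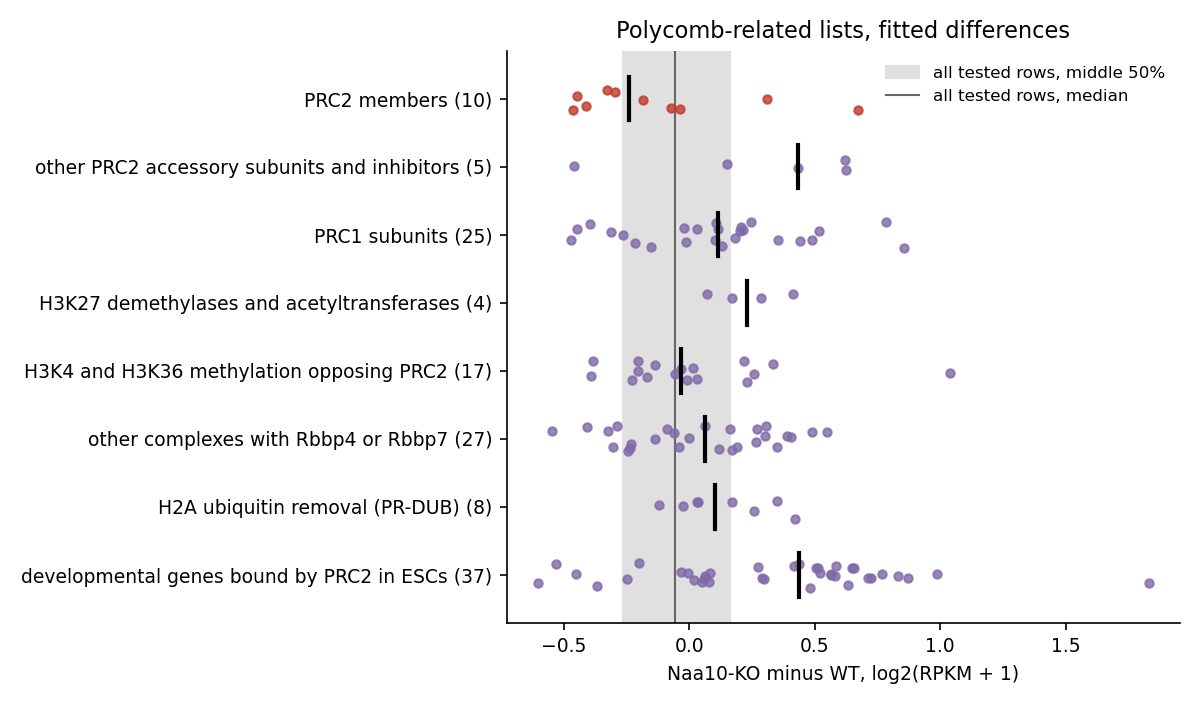
Fitted Naa10-KO minus WT difference in log2(RPKM + 1) for each tested row of the 10 members and of 7 related lists (tested rows in brackets), with a black bar at each list's median. The grey band and line give the middle 50% and the median of all tested rows. The members' median of -0.24 lies below that line. Those of the accessory genes (0.43, or 0.15 without WT replicate 1) and developmental genes (0.44, or 0.18 without Naa10-KO replicate 1) lie above it. Of the developmental rows, 4 passed the filter only through Naa10-KO and could only come out higher.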

How the data were processed

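Poly-dT selected RNA of 2 Naa10-KO and 2 WT libraries was measured. The authors deposited 1 table of RPKM for each library, per the file headers. Cufflinks and bedtools were used with mm9 (submitters' processing notes), with an aligner and gene models not given in the sources used here. Low values gave relative depths, but not the total. With fragments of 200 nt, the best whole-read fit between 40000000 and 95000000 was 50920000 for WT replicate 1. Over a range up to 200000000 it was 101820000. The fits of the Naa10-KO libraries over that wider range stayed near those of the narrower range, at 74100000 and 85520000. At the totals of the narrower range, replicate counts gave an average chi-square of 54.2 per gene between the Naa10-KO libraries over 416 genes. Between the WT libraries it was 1.87 over 390 genes, where sampling noise gives about 1. Each was therefore kept as a library of its own.

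Differences were tested with limma 3.58.1 (R 4.3.3) by a two-sided test of log2(RPKM + 1), letting the variance follow the mean, in the 11912 rows that reached 1 RPKM in 2 or more libraries, with Benjamini-Hochberg adjustment over them. Such differences understate those of low genes. The fit was tested on simulated data with the same spread in both groups, so the wider spread of Naa10-KO was not covered. Ratios used exact permutation tests (scipy 1.17.1). The members, lists and tests were chosen with earlier results of these data known. All members are named, and of each other list the rows past the threshold or otherwise the 3 with the smallest p; Kdm6b, Lcor, Lcorl and Vim were named outside this rule, after their values were seen. Alternatives covered the pseudocount, filters, scaling, the trend, a replicate block and leaving out each library. Promoter stretches are from RefSeq.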

Additional observations from a re-analysis of the deposited data

How the results depend on the processing

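No member passed with all 4 libraries under any of the 10 alternatives to the fit (9 for Phf19, which is left out by a mean of 5 RPKM), where the members' limma adjusted p ran from 0.0928 to 0.956, and none of the other Polycomb lists did. Over all rows the count of 91 was 40 with no filter on low values, 44 with the replicate block and 0 with rows at 0 and small RNA rows left out (limma; 2626 at an unadjusted p under 0.05).

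Leaving out each library in turn gave 12 to 7081 calls over all rows, 0 to 8 among the members and 0 to 81 among the other lists; the lone library of a group is then assumed to vary like the other pair, so the high counts, without a Naa10-KO library, rest on the narrow spread of WT. Across the 4 omissions the log2 difference ran from -0.81 to 0.22 for Ezh1, from -0.15 to 0.0030 for Rbbp4 and from -0.079 to 0.0062 for Rbbp7, whose value was 0.026 under rescaling to the median ratio. The log2 difference in ratio ran from -0.56 to 0.62 for Ezh2 over Ezh1, which was -0.032 with 1 added to each RPKM, and from -0.16 to 0.083 for Rbbp4 over Rbbp7. The cause was not tested. The other 7 members and 3 ratios kept their direction under each alternative that tested them.

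Titles give both groups replicate numbers 1 and 2, which nothing ties to a shared day or litter. Deviations of same-numbered libraries correlated at -0.21, so the pairing was also crossed, an alternative chosen after seeing the data, with 133 calls over all rows and 0 among the members. For Ezh1, Rbbp4 and Rbbp7 the difference was smaller than the gap between the Naa10-KO libraries, as it was for Jarid2.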
